A study of Mus musculus with 12 samples.

Results

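The 10 genes described here encode CC chemokines, the small secreted proteins with adjacent cysteines that guide leukocytes: Ccl2, Ccl3, Ccl4, Ccl5, Ccl6, Ccl7, Ccl12, Ccl17, Ccl22 and Ccl24. They were taken by name from a table of read counts with 25700 Ensembl gene identifiers, all 10 were in it, and all 10 passed the filter on low counts that left 13844 genes for testing. Bulk RNA sequencing had been done on F4/80-positive cells, enriched with antibody-coated beads from the non-parenchymal fraction of digested mouse livers, and no sort by flow cytometry followed. The 12 libraries form 4 groups of 3: sph/sph mice given an agonistic antibody to CD40 at 20 mg/kg, WT mice given the same antibody, sph/sph mice given saline, and WT mice given saline, all by intraperitoneal injection, with 30 h stated beside the antibody dose. The labels give every animal as male and 8 to 10 weeks old, and the WT animals as littermates with the genotype Spta wt/wt (the count table heads their columns Hetero instead); the strain is not given in the sources used here. The sph allele lies in the gene for alpha-spectrin, a protein of the red cell membrane skeleton, and homozygous mice lose red cells and are anaemic. The series' design counts 3 mice per group, so a library is taken as 1 mouse. Letters A to C name the libraries of a group. The headings of the A columns of both genotypes share an ID number within each treatment, whose meaning is not given, and the B and C columns share none.

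CC chemokines bind G protein-coupled receptors on the cells they attract. Ccl2, Ccl7 and Ccl12 act on CCR2 and draw monocytes out of marrow and blood; Ccl3, Ccl4 and Ccl5 draw monocytes, T cells and NK cells; Ccl17 and Ccl22 act on CCR4, and Ccl24 acts on CCR3 of eosinophils. In the liver, resident macrophages (Kupffer cells) and monocyte-derived macrophages are among the sources of these proteins. CD40 is a receptor of the TNF receptor family on macrophages, dendritic cells and B cells, and its ligation is known to switch on cytokine and chemokine genes.

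Levels are given as CPM, counts scaled to library size with TMM factors, and levels of different genes are compared per kilobase of exon (RPKM). Calls rest on edgeR's quasi-likelihood test over all 13844 genes, with the Benjamini-Hochberg adjusted p required to be under 0.05. Each ± after a log2 fold is an approximate standard error, the fold's absolute log2 value divided by the square root of the test's F statistic. Depth ran from 14991250 to 18984067 counts per library. Library C of the sph/sph anti-CD40 group stood apart: its log2 CPM correlated with A and B of that group at 0.8856 and 0.9038 across genes, whereas the other 10 pairs within a group lay between 0.9425 and 0.985. Calls on the 10 genes that change without it are given with and without it. Counts over 4 Y-linked genes were 0 in the A library of every group and 2436 to 4055 in the other 8, which goes against the label male for 4 animals. The F4/80 gene itself, Adgre1, stood at 1178, 2237 and 1101 CPM in sph/sph anti-CD40 libraries, against 173, 51.4 and 39.8 CPM in WT anti-CD40 libraries, and at 1430 to 1942 CPM in both saline groups. The 10 Kupffer cell markers summed to 21210 to 38170 CPM in sph/sph anti-CD40 libraries, against 507.4 to 1191 CPM in WT anti-CD40 libraries, and to 28790 CPM or more in the saline libraries. The 8 general macrophage markers summed to 6842 to 12810 CPM in sph/sph anti-CD40 libraries, against 6754 to 13120 CPM in WT anti-CD40 libraries. In sph/sph saline libraries they summed to 10770 to 14200 CPM, and in WT saline libraries to 12920 to 14900 CPM. After anti-CD40 5 of the 8 were called lower and 0 higher in WT mice, beside 19.7% of all genes tested lower. Under anti-CD40 4 of the 8 were called higher in sph/sph than in WT mice and 0 lower, beside 11.5% of all genes higher. In such bulk libraries fewer cells of a type and less RNA per cell cannot be told apart.

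Of the 10 genes, 7 lie in the CC chemokine cluster of chromosome 11 (GENCODE annotation of GRCm38). Ccl2 (ENSMUSG00000035385, chr11:82035571-82037453), Ccl7 (ENSMUSG00000035373, chr11:82045712-82047525) and Ccl12 (ENSMUSG00000035352, chr11:82101845-82103400) form its first stretch, all on the plus strand, and Ccl2 ends 8.26 kb before Ccl7. Ccl5 (ENSMUSG00000035042, chr11:83525778-83530518), Ccl6 (ENSMUSG00000018927, chr11:83587882-83593087), Ccl3 (ENSMUSG00000000982, chr11:83647844-83649355) and Ccl4 (ENSMUSG00000018930, chr11:83662584-83664683) form the second, and only Ccl4 of these is on the plus strand. Ccl22 (ENSMUSG00000031779, chr8:94745590-94751699) and Ccl17 (ENSMUSG00000031780, chr8:94810453-94812036) are neighbours on the plus strand of chromosome 8 with a gap of 58.8 kb, and Ccl24 (ENSMUSG00000004814, chr5:135569937-135573049) lies on the minus strand of chromosome 5. All are protein-coding, and none shares exon bases with another annotated gene.

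Neighbouring genes of this family moved in different ways, and the sequences before the starts of both such pairs are shown for that reason. They are the 250 bases upstream of the RefSeq start (GRCm38.p6), written 5′ to 3′ on the gene's own strand, for Ccl22 (chr8:94745434-94745683, plus strand), Ccl17 (chr8:94810203-94810452, plus strand), Ccl3 (chr11:83649379-83649628, minus strand) and Ccl6 (chr11:83593088-83593337, minus strand). Capitals mark the motif match described after them.
Ccl22: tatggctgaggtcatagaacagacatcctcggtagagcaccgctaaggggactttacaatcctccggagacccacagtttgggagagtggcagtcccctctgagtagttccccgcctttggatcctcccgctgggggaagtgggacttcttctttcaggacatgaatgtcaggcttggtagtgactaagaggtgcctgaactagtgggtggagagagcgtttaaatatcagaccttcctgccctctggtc
Ccl17: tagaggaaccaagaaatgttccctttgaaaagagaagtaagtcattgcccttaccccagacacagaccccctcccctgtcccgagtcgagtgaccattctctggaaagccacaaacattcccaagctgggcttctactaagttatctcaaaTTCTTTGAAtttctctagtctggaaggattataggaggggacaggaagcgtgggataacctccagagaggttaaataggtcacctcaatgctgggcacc
Ccl3: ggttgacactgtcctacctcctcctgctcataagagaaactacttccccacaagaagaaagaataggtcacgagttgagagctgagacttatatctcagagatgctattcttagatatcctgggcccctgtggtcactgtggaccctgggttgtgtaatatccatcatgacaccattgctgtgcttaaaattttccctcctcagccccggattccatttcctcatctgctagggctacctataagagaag
Ccl6: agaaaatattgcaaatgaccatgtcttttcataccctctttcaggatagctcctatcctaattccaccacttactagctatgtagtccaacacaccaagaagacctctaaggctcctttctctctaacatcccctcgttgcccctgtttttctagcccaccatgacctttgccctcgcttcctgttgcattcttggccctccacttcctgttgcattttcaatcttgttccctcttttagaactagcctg
The RefSeq promoter table held 5 of the 10 genes, these 4 and Ccl12. Windows from 250 bases before to 50 bases after the start were searched on both strands for TTCNNNGAA (the GAS element bound by STAT factors), for a repeated IRF half-site (GAAA, any pair of bases, GAAA) and for the kappa B consensus. The single match among the 5 windows was a GAS element, TTCTTTGAA, that begins 99 bases before the start of Ccl17, and it overlaps no other searched motif. Of all 32851 promoters in that table, 8.3% hold the GAS letters, 3.44% the IRF pair and 8.46% the kappa B consensus. A match describes letters in the window and is not evidence of binding.

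Without stimulation the 10 genes were led by Ccl6 and Ccl24. Ccl6, a mouse chemokine that acts on CCR1, averaged 544 ± 124 RPKM in sph/sph saline libraries and 508 ± 163 RPKM in WT saline libraries (SD, n = 3 each). Ccl24, the eosinophil attractant also called eotaxin-2, averaged 88.7 ± 26.9 RPKM in sph/sph saline libraries and 145 ± 39.0 RPKM in WT saline libraries. The lowest Ccl6 library lay above the highest Ccl24 library in both saline groups, and the lowest Ccl24 library lay above the highest library of the next gene. The other 8 genes averaged 0.509 to 19.9 RPKM in sph/sph saline libraries and 0.567 to 8.47 RPKM in WT saline libraries, with Ccl22 the lowest in both. Among those 8, most neighbours in the order overlapped, so no finer order is given.

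**Figure D1:**
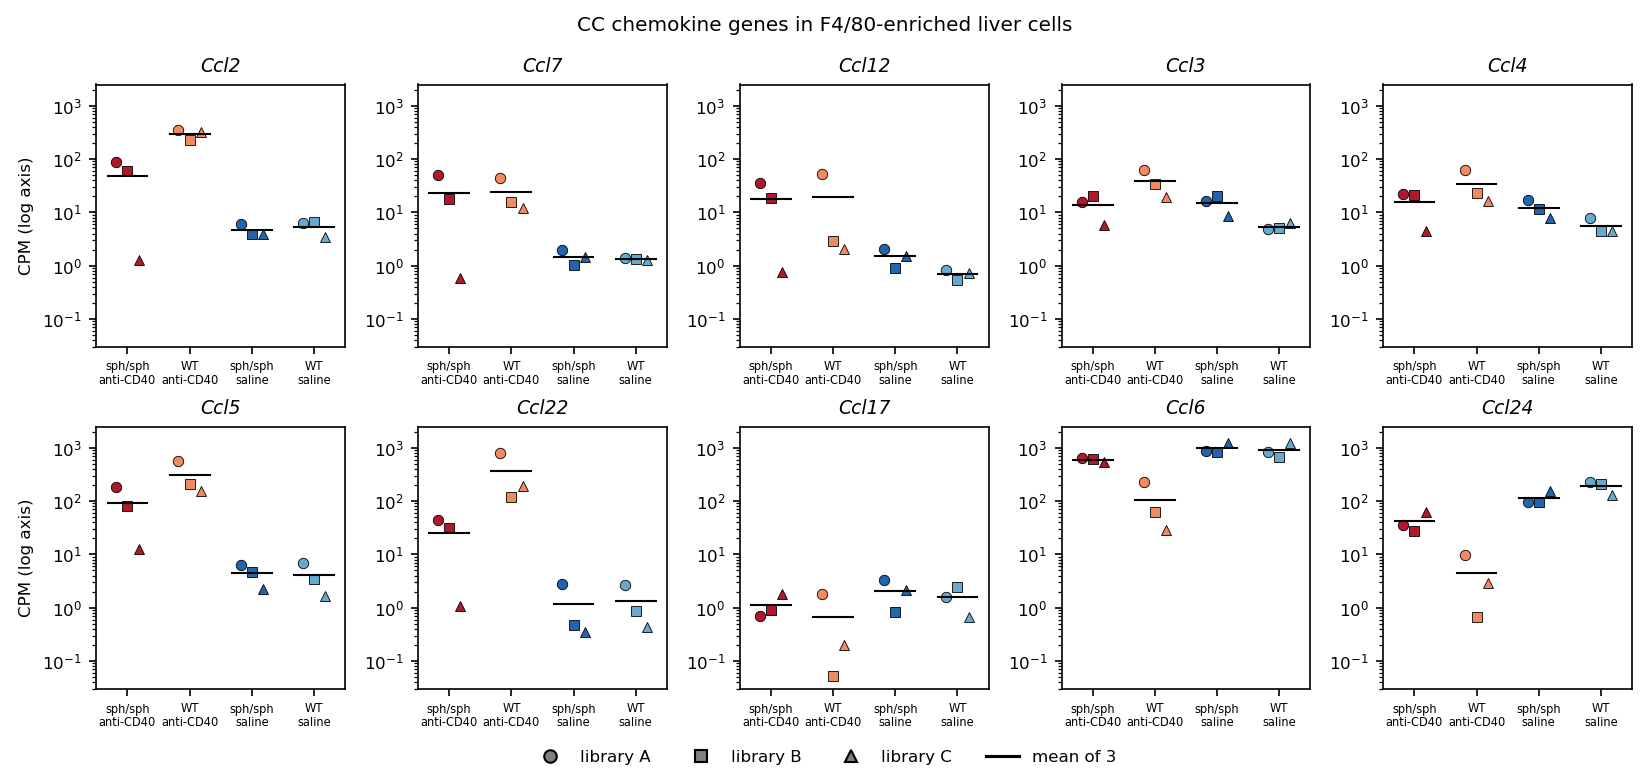
CPM (log axis) of the 10 CC chemokine genes in each library, by group, with the mean of 3 libraries as a line. Ccl6 and Ccl24 are lowest in the WT anti-CD40 libraries, and Ccl2 and Ccl22 highest there. For Ccl5 the WT anti-CD40 mean is highest, but sph/sph anti-CD40 A lies above WT anti-CD40 C. Library C of the sph/sph anti-CD40 group lies below A and B for Ccl2, Ccl5, Ccl7, Ccl12 and Ccl22.

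Between the genotypes under saline the 10 genes gave no call: edgeR found 0 higher and 0 lower in sph/sph, with 1 at an unadjusted p under 0.05 (13.1% of all genes tested), where 1.6% of all genes tested were called higher and 0.433% lower (2.04% in either direction). DESeq2 and limma-voom also called 0. Ccl3, which attracts monocytes and lymphocytes, had 16.4, 20.5 and 8.73 CPM in sph/sph saline libraries, against 4.88, 5.00 and 6.21 CPM in WT saline libraries. Every sph/sph value lay above every WT value, and the log2 fold was 1.5 ± 0.524 (edgeR adjusted p = 0.224). Ccl12 was the other gene without overlap, also higher in sph/sph (log2 fold 1.08, edgeR adjusted p = 0.812); 16.7% of all genes tested were higher in every sph/sph library and 14.3% lower. A fit of the saline libraries alone called Ccl3 (log2 fold 1.49, edgeR adjusted p = 0.0457). The median log2 fold of the 10 genes was 0.142, beside 0.0117 over all genes tested.

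Anti-CD40 changed 9 of the 10 genes in WT mice. Ccl2, Ccl3, Ccl4, Ccl5, Ccl7, Ccl12 and Ccl22 rose and Ccl6 and Ccl24 fell, while Ccl17 was not called. In that comparison 19.4% of all genes tested were called higher and 19.7% lower (39.2% in either direction), and the median log2 fold was 3.5 for the 10 genes and 0.0474 for all genes tested. Groups did not overlap for the same 9 genes, a pattern that 29.3% of all genes showed upward and 28% downward. In sph/sph mice edgeR called 0 of the 10 in either direction, with 5 higher and 0 lower at an unadjusted p under 0.05 (21% of all genes tested in either direction); 0.578% of all genes tested were called higher and 0.202% lower, and the median log2 fold was 1.88 for the 10 genes and 0.0422 for all. DESeq2 called 5 of the 10 higher there (Ccl2, Ccl5, Ccl7, Ccl12 and Ccl22), beside 5.37% of all genes it tested, and limma-voom called 0. Without sph/sph anti-CD40 C, edgeR called these 5 higher and 0 lower, where 9.83% of all genes were called higher and 7.04% lower.

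All 3 CCR2 ligands rose after anti-CD40 in WT mice. Ccl2, the main monocyte attractant of the family, had 86.4, 58.4 and 1.30 CPM in sph/sph anti-CD40 libraries A, B and C, 354, 223 and 325 CPM in WT anti-CD40 libraries, 6.12, 3.98 and 3.96 CPM in sph/sph saline libraries, and 6.23, 6.48 and 3.38 CPM in WT saline libraries. All 3 WT anti-CD40 values lay above every other library, A and B of the sph/sph anti-CD40 group lay between them and the saline values, and C lay below all saline values. In WT mice Ccl2 rose by a log2 fold of 5.81 ± 1.1 (56.0-fold, edgeR adjusted p = 0.00276). In sph/sph mice its log2 fold was 3.38 ± 0.995 with all libraries (edgeR adjusted p = 0.111) and 3.94 without C (edgeR adjusted p = 0.000469).

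Ccl7, a second CCR2 ligand beside Ccl2 in the cluster, had 49.9, 17.8 and 0.594 CPM in sph/sph anti-CD40 libraries A, B and C, 44.0, 15.9 and 11.9 CPM in WT anti-CD40 libraries, and 1.01 to 2.00 CPM over the 6 saline libraries. In the sph/sph anti-CD40 group A lay above the WT anti-CD40 range, B within it, and C below every saline library. Ccl7 rose in WT mice (log2 fold 4.15 ± 1.14, edgeR adjusted p = 0.0165). In sph/sph mice the log2 fold was 3.93 ± 1.13 (edgeR adjusted p = 0.107), and 4.49 without C (edgeR adjusted p = 0.00268). The call in WT mice was lost in 5 of 20 alternative fits, among them each that left out 1 WT saline library (log2 folds 4.10 to 4.19, edgeR adjusted p = 0.0547 to 0.0582).

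Ccl12, the mouse CCR2 ligand once named MCP-5, had 35.5, 18.3 and 0.755 CPM in sph/sph anti-CD40 libraries A, B and C, 53.4, 2.89 and 2.07 CPM in WT anti-CD40 libraries, and 0.549 to 2.06 CPM over the 6 saline libraries. The WT anti-CD40 value of A was far above those of B and C. Ccl12 rose in WT mice (log2 fold 4.78 ± 1.51, edgeR adjusted p = 0.0296), but without WT anti-CD40 A the log2 fold was 1.81 (edgeR adjusted p = 0.209). Set within the libraries alike in Y-linked counts, the log2 ratio in WT mice was 5.84 between the A libraries and 1.81 between the means of B and C. In sph/sph mice the log2 fold was 3.61 ± 1.41 (edgeR adjusted p = 0.185), and 4.16 without C (edgeR adjusted p = 0.0433).

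Of Ccl3, Ccl4 and Ccl5, which draw monocytes and lymphocytes, Ccl5 had the largest response. Ccl5, also named RANTES, had 181, 80.6 and 12.5 CPM in sph/sph anti-CD40 libraries A, B and C, 555, 205 and 154 CPM in WT anti-CD40 libraries, 6.25, 4.75 and 2.27 CPM in sph/sph saline libraries, and 7.01, 3.46 and 1.66 CPM in WT saline libraries. It was the single gene of the 10 for which all 3 sph/sph anti-CD40 libraries, C included, lay above every sph/sph saline library; 10.1% of all genes tested did so. Ccl5 rose in WT mice (log2 fold 6.24 ± 1.05, 75.6-fold, edgeR adjusted p = 0.00144). The sph/sph log2 fold was 4.37 ± 0.968 (edgeR adjusted p = 0.0649), and 4.88 without C (edgeR adjusted p = 0.00391). T cells and NK cells also make Ccl5, and the 14 T and NK markers summed to 6.805 to 141.2 CPM in sph/sph anti-CD40 libraries, against 248.6 to 2200 CPM in WT anti-CD40 libraries, and 12.22 to 27.7 CPM in the saline libraries. In WT anti-CD40 libraries A, B and C these markers summed to 248.6, 2200 and 822.5 CPM. Their part in the result was not tested.

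Ccl3 and Ccl4, adjacent genes 13.2 kb apart, differed from Ccl5 in the sph/sph mice. Ccl3 had 15.8, 20.4 and 5.72 CPM in sph/sph anti-CD40 libraries A, B and C, against 16.4, 20.5 and 8.73 CPM in sph/sph saline libraries, and 62.8, 34.3 and 19.7 CPM in WT anti-CD40 libraries, against 4.88, 5.00 and 6.21 CPM in WT saline libraries. In WT mice every treated library lay above every saline library; in sph/sph mice A and B lay within the saline range. Ccl3 rose in WT mice (log2 fold 2.86 ± 0.546, edgeR adjusted p = 0.00286), and its log2 fold in sph/sph mice was -0.12 ± 0.510 (edgeR adjusted p = 0.912). The difference of these responses was -2.98 ± 0.736 (edgeR adjusted p = 0.0506), and -2.58 without sph/sph anti-CD40 C (edgeR adjusted p = 0.0452). Over 19 alternative fits that difference ran from -3.36 to -2.43, with adjusted p-values of 0.00167 to 0.311 from edgeR, DESeq2 and limma-voom, and it was called in 6 of them.

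Ccl4, close to Ccl3 in function, had 22.3, 21.2 and 4.48 CPM in sph/sph anti-CD40 libraries A, B and C, against 17.3, 11.5 and 7.68 CPM in sph/sph saline libraries, and 62.9, 22.8 and 16.6 CPM in WT anti-CD40 libraries, against 7.78, 4.51 and 4.49 CPM in WT saline libraries. The WT groups did not overlap. In sph/sph mice A and B lay above the saline range and C below it. Ccl4 rose in WT mice (log2 fold 2.61 ± 0.669, edgeR adjusted p = 0.0122), with a log2 fold of 0.39 ± 0.632 in sph/sph mice (edgeR adjusted p = 0.761). Without sph/sph anti-CD40 C the sph/sph log2 fold of Ccl4 was 0.831 (edgeR adjusted p = 0.302). The difference of the responses was -2.22 ± 0.904 with all libraries (edgeR adjusted p = 0.218), and -1.74 without C (edgeR adjusted p = 0.193).

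The CCR4 ligands parted ways. Ccl22, made mainly by macrophages and dendritic cells, had 44.5, 31.5 and 1.08 CPM in sph/sph anti-CD40 libraries A, B and C, 794, 119 and 190 CPM in WT anti-CD40 libraries, 2.73, 0.475 and 0.349 CPM in sph/sph saline libraries, and 2.64, 0.879 and 0.443 CPM in WT saline libraries. Every WT anti-CD40 library lay above every other library, and C of the sph/sph anti-CD40 group lay within the saline range. Ccl22 had the largest rise of the 10 in WT mice (log2 fold 8.14 ± 1.54, 282-fold, edgeR adjusted p = 0.00273). The sph/sph log2 fold was 4.46 ± 1.35 (edgeR adjusted p = 0.117), and 5.02 without C (edgeR adjusted p = 0.0131). The 9 dendritic cell markers summed to 154.7 to 311.4 CPM in sph/sph anti-CD40 libraries, against 76.51 to 149.8 CPM in sph/sph saline libraries. In WT saline libraries they summed to 127.5 to 158.3 CPM. In WT anti-CD40 libraries A, B and C they summed to 2593, 929 and 1045 CPM. After anti-CD40 4 of the 9 markers were called higher and 1 lower in WT mice, beside 19.4% and 19.7% of all genes tested. In sph/sph mice 0 of the 9 markers were called, beside 0.578% of all genes tested higher and 0.202% lower. The median log2 fold of the 9 markers there was -0.17, beside 0.0422 for all genes tested. The part of dendritic cells in the result was not tested.

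Ccl17, the other CCR4 ligand, was low in all groups, with 10, 12 and 33 counts in sph/sph anti-CD40 libraries A, B and C, 27, 1 and 4 counts in WT anti-CD40 libraries, 49, 14 and 37 counts in sph/sph saline libraries, and 25, 44 and 12 counts in WT saline libraries. B and C of the WT anti-CD40 group were the lowest libraries of the 12, and A of that group was within the WT saline range. No comparison called Ccl17 with all libraries (log2 fold -1.23 ± 1.01 for anti-CD40 in WT, edgeR adjusted p = 0.354). Without WT anti-CD40 A it was lower after anti-CD40 in WT (log2 fold -3.56, edgeR adjusted p = 0.0176) and higher in sph/sph than in WT under anti-CD40 (log2 fold 3.09, edgeR adjusted p = 0.0486).

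Ccl6 and Ccl24, the leading genes at rest, fell after anti-CD40 in WT mice. Ccl6 had 646, 620 and 531 CPM in sph/sph anti-CD40 libraries A, B and C, 228, 61.4 and 29.3 CPM in WT anti-CD40 libraries, 868, 829 and 1232 CPM in sph/sph saline libraries, and 818, 676 and 1240 CPM in WT saline libraries. Library C of the sph/sph anti-CD40 group was close to A and B for this gene, and all 3 lay below the sph/sph saline libraries and above the WT anti-CD40 libraries. In WT mice Ccl6 fell by 3.10 ± 0.637 on the log2 scale (8.59-fold lower, edgeR adjusted p = 0.00414). In sph/sph mice its log2 fold was -0.70 ± 0.590 (edgeR adjusted p = 0.514). Ccl3, 54.8 kb away on the same strand, rose in the WT libraries in which Ccl6 fell.

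Ccl24 had 35.4, 27.9 and 63.5 CPM in sph/sph anti-CD40 libraries A, B and C, 9.64, 0.682 and 2.95 CPM in WT anti-CD40 libraries, 95.4, 94.1 and 155 CPM in sph/sph saline libraries, and 224, 209 and 130 CPM in WT saline libraries. As for Ccl6, the sph/sph anti-CD40 libraries all lay below the saline libraries and above the WT anti-CD40 libraries. Ccl24 fell by 5.43 ± 0.796 on the log2 scale in WT mice (43.0-fold lower, edgeR adjusted p = 0.000684), and had a log2 fold of -1.44 ± 0.665 in sph/sph mice (edgeR adjusted p = 0.245). In sph/sph mice Ccl6 and Ccl24 were 2 of 10 genes lower in every treated library, beside 11.6% of all genes tested. The Kupffer cell markers moved in the same direction in WT mice. There 9 of 10 were called lower and 0 higher after anti-CD40, beside 19.7% of all genes tested lower. In sph/sph mice 0 of 10 were called, beside 0.202% of all genes tested lower. The median log2 fold of the 10 markers in sph/sph mice was -1.04, beside 0.0422 for all genes tested. The summed levels of these markers are given above; their part in the fall of Ccl6 and Ccl24 was not tested.

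**Figure D2:**
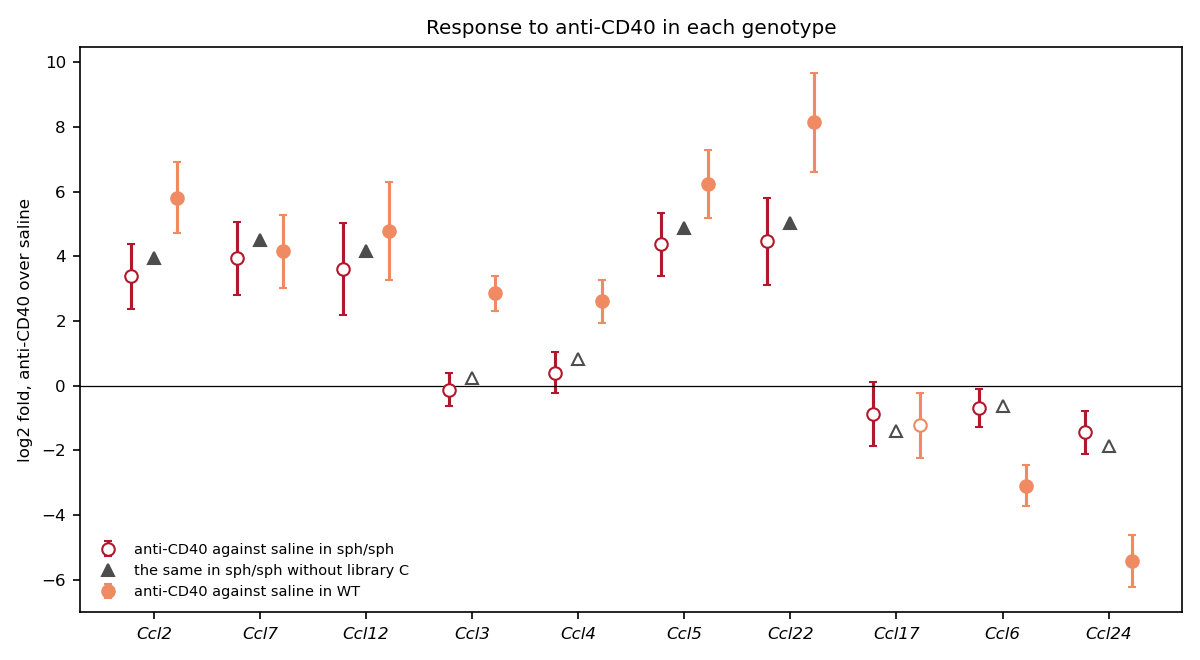
Log2 fold of anti-CD40 over saline (vertical axis, ± approximate standard error) for each gene in sph/sph mice (left) and in WT mice (right). A triangle between them gives the sph/sph value without library C. Filled symbols were called at an edgeR adjusted p under 0.05. In WT mice 9 of the 10 are filled, in sph/sph mice none with all 3 libraries and 5 without C.

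Under anti-CD40, sph/sph mice had more Ccl6 and Ccl24 than WT mice. The log2 fold of sph/sph over WT was 2.50 ± 0.621 for Ccl6 (5.65-fold, edgeR adjusted p = 0.021). For Ccl24 it was 3.27 ± 0.728 (9.67-fold, edgeR adjusted p = 0.013). These 2 of the 10 genes were called higher and 0 lower, beside 11.5% of all genes tested called higher and 6.19% lower; the median log2 fold was -0.595 for the 10 genes and 0.08 for all. A fit of the anti-CD40 libraries alone called neither (Ccl6 log2 fold 2.45, edgeR adjusted p = 0.118; Ccl24 log2 fold 3.22, edgeR adjusted p = 0.102). Without WT anti-CD40 B the Ccl6 call was lost (edgeR adjusted p = 0.0748), and without WT anti-CD40 C the Ccl24 call (edgeR adjusted p = 0.058). Without sph/sph anti-CD40 C the log2 folds were 2.59 for Ccl6 (edgeR adjusted p = 0.0228) and 2.87 for Ccl24 (edgeR adjusted p = 0.0208). In the same comparison 9 of 10 Kupffer cell markers, 8 of 8 erythroid markers and 5 of 6 tested eosinophil markers were higher in sph/sph. The erythroid markers summed to 4480 to 17150 CPM in sph/sph anti-CD40 libraries, against 32.3 to 204.8 CPM in WT anti-CD40 libraries, and to 5181 to 9300 CPM in sph/sph saline libraries, against 73.84 to 320.5 CPM in WT saline libraries. The part of these cells in the differences was not tested.

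Ccl2 and Ccl22 were lower in all 3 sph/sph anti-CD40 libraries than in any WT anti-CD40 library, as 11.7% of all genes were, while Ccl6 and Ccl24 were higher in all, as 16.7% of all genes were. Ccl2 gave a log2 fold of -2.63 ± 0.943 (edgeR adjusted p = 0.0832) and Ccl22 of -3.84 ± 1.23 (edgeR adjusted p = 0.0565). Without sph/sph anti-CD40 C both were called lower, Ccl2 at -2.05 (edgeR adjusted p = 0.00376) and Ccl22 at -3.26 (edgeR adjusted p = 0.044), beside 10.8% of all genes lower and 13.5% higher. DESeq2 with all libraries called Ccl2, Ccl3 and Ccl22 lower, beside 10.6% of all genes it tested, and limma-voom called Ccl2 and Ccl22, beside 6.59%. At an unadjusted p under 0.05 edgeR gave 2 of the 10 higher and 3 lower, where 31.3% of all genes passed in either direction. Ccl7 and Ccl12 had log2 folds of -0.07 ± 0.980 and -0.10 ± 1.24, wide errors that set no narrow bound on a difference. Ccl3, Ccl4 and Ccl5 had log2 folds of -1.48, -1.10 and -1.74 and were not called by edgeR.

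With all libraries edgeR called a difference by genotype in the response to anti-CD40 for 1 of the 10 genes. The response of Ccl24 in sph/sph mice minus that in WT mice was 3.98 ± 0.97 on the log2 scale (edgeR adjusted p = 0.0474), where 3.18% of all genes tested were called higher in this test and 1.12% lower (4.3% in either direction). That value lies close to the threshold: it ran from 3.48 to 5.24 over 19 alternative fits, with adjusted p-values of 0.00119 to 0.129, and was not called in 13 of them. Without sph/sph anti-CD40 C it was 3.60 (edgeR adjusted p = 0.0556), while Ccl2 at -1.84 (edgeR adjusted p = 0.0447) and Ccl3 at -2.58 were then called lower and 0 of the 10 higher, beside 2.4% of all genes lower and 4.3% higher. With all libraries the difference of responses for Ccl3 was -2.98 ± 0.736 (edgeR adjusted p = 0.0506), also close to the threshold. It was called in 6 of 19 alternative fits. For Ccl22 the difference of responses was -3.68 ± 1.81 (edgeR adjusted p = 0.312), and for Ccl6 it was 2.40 ± 0.842 (edgeR adjusted p = 0.151). Without WT anti-CD40 A the value for Ccl6 was 3.63 (edgeR adjusted p = 0.00298).

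Library C of the sph/sph anti-CD40 group differed from A and B in place for most of the 10 genes. For 7 of them it lay below the range of the sph/sph saline libraries, for 2 within it (Ccl17 and Ccl22), and for 1 above it (Ccl5); of the 7, Ccl6 and Ccl24 lay below that range in A and B as well. A and B each lay above that range for 6 of the 10. Cd40, the gene of the targeted receptor, had 116, 111 and 41.2 CPM in sph/sph anti-CD40 libraries A, B and C, against 12.2, 14.0 and 12.1 CPM in sph/sph saline libraries. It had 741, 235 and 232 CPM in WT anti-CD40 libraries, against 26.8, 17.7 and 18.3 CPM in WT saline libraries. The B cell markers summed to 1660 CPM in C and to 281.9 CPM or less in the other 11 libraries, and the general macrophage markers to 6842 CPM in C, against 12810 and 12280 CPM in A and B.

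The sign of each comparison was also read within libraries alike in Y-linked counts. For anti-CD40 in sph/sph mice the log2 ratio had 1 sign in the A libraries and in the means of B and C for 10 of 10 genes, and in WT mice for 9 of 10, Ccl17 being the exception. For sph/sph against WT under anti-CD40 it was 7 of 10, with Ccl7, Ccl12 and Ccl17 of opposite signs, and for sph/sph against WT under saline it was 6 of 10. Ccl6 had a log2 ratio of sph/sph over WT of 1.5 in the A libraries and 3.66 in the others. Ccl24 had 1.86 in the A libraries and 4.58 in the others. These ratios come from mean CPM plus 0.1, with 1 library per group against 2, and no test. Agreement of sign was not counted over all genes, so the counts show nothing particular to these 10.

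The make-up of CC chemokine transcripts differed between the treated groups. The 10 genes summed to 622.4 ± 237.9 RPKM in sph/sph anti-CD40 libraries, 972.1 ± 631.1 RPKM in WT anti-CD40 libraries, 688.7 ± 135.7 RPKM in sph/sph saline libraries and 683.8 ± 124 RPKM in WT saline libraries (SD, n = 3 each), ranges that overlapped. Ccl6 made up 58.2 ± 18.2% of the sum in sph/sph anti-CD40 libraries, 5.27 ± 2.44% in WT anti-CD40 libraries, 78.7 ± 2.39% in sph/sph saline libraries and 73.1 ± 10.1% in WT saline libraries. In WT anti-CD40 libraries Ccl2 made up 32.4 ± 14%, Ccl5 31.9 ± 5.14% and Ccl22 14 ± 5.81%; in sph/sph anti-CD40 libraries they made up 5.76 ± 4.75%, 12.9 ± 9.3% and 1.5 ± 1.19%.

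By level per kilobase the WT anti-CD40 group was led by Ccl5 (317 ± 228 RPKM), Ccl2 (264 ± 60.4 RPKM) and Ccl22 (158 ± 160 RPKM), with Ccl6 next at 59.2 ± 59.4 RPKM, and each of these overlapped its neighbour in the order. The sph/sph anti-CD40 group was led by Ccl6 at 334 ± 33.6 RPKM, without overlap with the second gene, Ccl5, at 95.1 ± 88.2 RPKM. Ccl17 had the lowest mean in both, overlapping the gene above it.

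**Figure D3:**
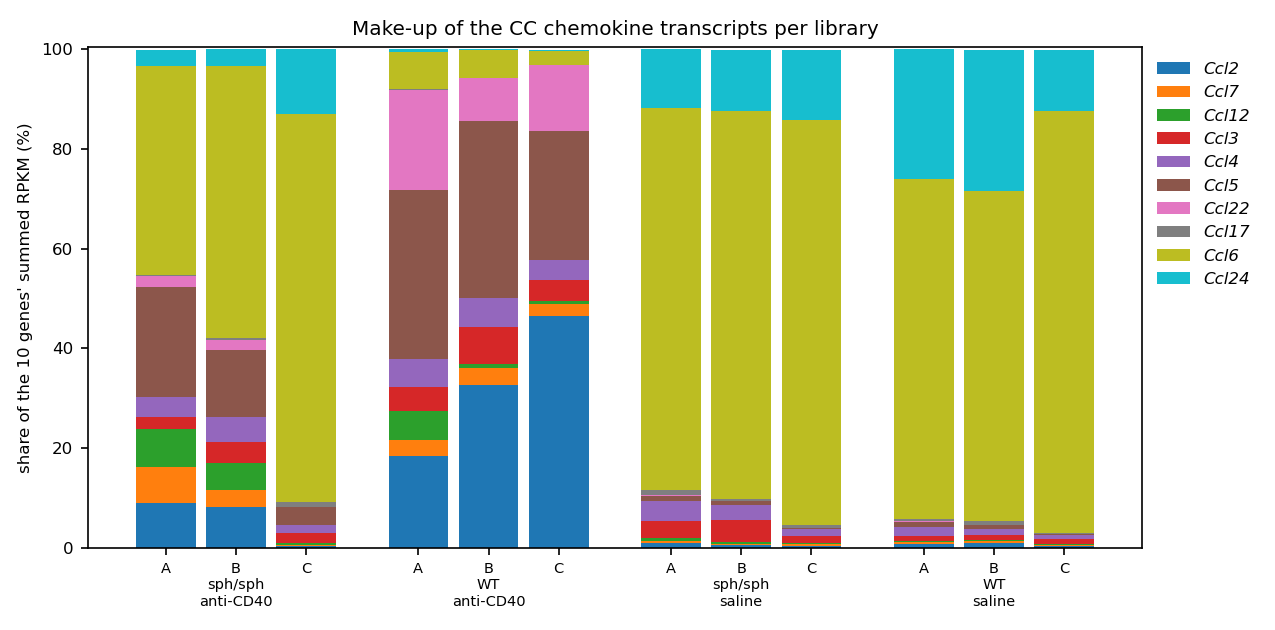
Share of each gene in the summed RPKM of the 10 CC chemokine genes (vertical axis, %), 1 bar per library. Ccl6 and Ccl24 fill most of every saline bar and of sph/sph anti-CD40 B and C, whereas Ccl2, Ccl5 and Ccl22 fill most of the 3 WT anti-CD40 bars.

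Across the 12 libraries log2 CPM of Ccl5 and Ccl22 correlated at r = 0.971, of Ccl3 and Ccl4 at 0.935, of Ccl2 and Ccl7 at 0.925 and of Ccl6 and Ccl24 at 0.907, whereas Ccl2 and Ccl24 ran opposite (r = -0.84). These values describe libraries that share the group structure and carry no test. Among genes outside the family, the nearest in pattern to Ccl2 were Cxcl10 and Cxcl9, chemokines induced by interferon-gamma, and Mapre1 (r = 0.988 each). The nearest to Ccl5 were Nfkb2 (r = 0.985) and Relb (r = 0.984), subunits of NF-kappa B, followed by Sema4a. To Ccl22 they were Nlrc5 (r = 0.988), a regulator of MHC class I genes, Bcl2a1d and Sema4a. To Ccl6 they were Pygl (r = 0.989), the liver form of glycogen phosphorylase, Slc7a8 and Emilin2, and to Ccl24 Bend6 (r = 0.984), Fabp7 (r = 0.982) and Spire1. Hcar2, a receptor for hydroxy-carboxylic acids, was nearest to Ccl3 (r = 0.937) and second to Ccl4 (r = 0.948), after Id2 (r = 0.949). Ccl7 was nearest to Gadd45b (r = 0.988), Ccl12 to Actb (r = 0.981) and Ccl17 to Catsperg1 (r = 0.928).

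Of 14 further CC ligand genes, 13 were in the table and 4 passed the filter (Ccl8, Ccl9, Ccl20 and Ccl25). Ccl20, the CCR6 ligand that attracts dendritic cells and some T cells, had 97, 78 and 52 counts in the WT anti-CD40 libraries and 0 in the other 9 libraries. Taken against a floor of 3 counts over a group, it was at least 72.1-fold higher in WT anti-CD40 than in WT saline libraries (edgeR adjusted p = 0.00392) and at least 64.7-fold lower in sph/sph than in WT anti-CD40 libraries (edgeR adjusted p = 0.00902). Ccl8, which acts on CCR8 in mice, had 36.6, 10.1 and 0.432 CPM in sph/sph anti-CD40 libraries A, B and C, 6.45, 0.787 and 2.46 CPM in WT anti-CD40 libraries, and 0.277 to 1.60 CPM over the saline libraries. Its highest 2 libraries were thus A and B of the sph/sph anti-CD40 group. No comparison called Ccl8 in edgeR with all libraries (log2 fold 2.29 ± 1.18 for sph/sph over WT under anti-CD40, adjusted p = 0.22). DESeq2 called it higher after anti-CD40 in sph/sph mice (adjusted p = 0.0154) and in WT mice (adjusted p = 0.0402), and so did edgeR without sph/sph anti-CD40 C (adjusted p = 0.0136 in sph/sph and 0.0323 in WT). In that setting it was also called higher in sph/sph than in WT under anti-CD40 (log2 fold 2.87, edgeR adjusted p = 0.0362). With all libraries Ccl9 and Ccl25 were not called in any comparison. For anti-CD40 in WT mice, Ccl9 was called without WT anti-CD40 C (log2 fold 1.38, edgeR adjusted p = 0.0475) and Ccl25 without WT anti-CD40 A (log2 fold -1.03, edgeR adjusted p = 0.049). The 9 ligand genes below the filter reached at most 24 counts in a library.

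Receptor genes for these ligands were measured in the same libraries. Of 13 receptor genes 10 passed the filter (Ccr4, Ccr8 and Ccr10 did not). In WT mice anti-CD40 raised 6 and lowered 2, beside 19.4% of all genes tested called higher and 19.7% lower. In sph/sph mice edgeR called 0, beside 0.578% of all genes tested higher and 0.202% lower. DESeq2 called 4 higher (Ccr1, Ccr6, Ccr7 and Ccrl2) and 0 lower there, beside 5.37% and 4.78% of all genes it tested. Ccr1, which binds Ccl3, Ccl5 and Ccl6, had 22.8, 13.8 and 5.23 CPM in sph/sph anti-CD40 libraries, 73.5, 31.2 and 18.2 CPM in WT anti-CD40 libraries, and 0.815 to 3.71 CPM over the saline libraries. Both treated groups lay above all saline libraries. Ccr1 rose in WT mice (log2 fold 4.03 ± 0.743, edgeR adjusted p = 0.0024), with a log2 fold of 3.28 ± 0.737 in sph/sph mice (edgeR adjusted p = 0.0676) that was called without C (3.67, edgeR adjusted p = 0.00823). Ccr2, the receptor of Ccl2, had log2 folds of 1.83 in sph/sph mice and 1.96 in WT mice (edgeR adjusted p = 0.184 and 0.0506). Without sph/sph anti-CD40 C they were 2.27 and 1.94, both called (edgeR adjusted p = 0.0354 and 0.0203). The WT value was called in 7 of 20 alternative fits, among them DESeq2 (adjusted p = 0.0109) and limma-voom (adjusted p = 0.0387), over a range of 0.0109 to 0.181. The 8 monocyte markers, Ccr2 among them, summed to 487.7 to 1781 CPM in sph/sph anti-CD40 libraries, against 135.7 to 360.2 CPM in sph/sph saline libraries, and to 758.8 to 2158 CPM in WT anti-CD40 libraries, against 239.5 to 379.5 CPM in WT saline libraries.

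Ccr3, the eosinophil receptor for Ccl24, had 84.0, 139 and 157 CPM in sph/sph anti-CD40 libraries, 0.333, 0.682 and 0.542 CPM in WT anti-CD40 libraries, 247, 326 and 298 CPM in sph/sph saline libraries, and 16.7, 18.2 and 86.4 CPM in WT saline libraries. The sph/sph anti-CD40 and WT saline groups overlapped, and no other pair of groups did. Ccr3 fell after anti-CD40 in WT mice (log2 fold -6.24 ± 0.74, edgeR adjusted p = 0.000209) and had a log2 fold of -1.19 ± 0.554 in sph/sph mice (edgeR adjusted p = 0.247). It was higher in sph/sph than in WT mice under anti-CD40 (log2 fold 7.89 ± 0.78, edgeR adjusted p = 0.000174) and under saline (log2 fold 2.84 ± 0.587, edgeR adjusted p = 0.0373), the saline call being lost in 10 of 20 alternative fits. Without sph/sph anti-CD40 C the log2 fold under anti-CD40 was 7.71 (edgeR adjusted p = 0.00038). The eosinophil markers summed to 277.5 to 462.6 CPM in sph/sph anti-CD40 libraries, 10.02 to 13.23 CPM in WT anti-CD40 libraries, 305.6 to 572.5 CPM in sph/sph saline libraries and 209.8 to 255.6 CPM in WT saline libraries. Most of that sum was Ear2, a ribonuclease gene, with 3708 to 4003 counts in WT saline libraries, where Epx, the eosinophil peroxidase, had 6, 0 and 0 counts. Epx had 113, 322 and 523 counts in sph/sph anti-CD40 libraries, against 0, 1 and 2 in WT anti-CD40 libraries, and 43 to 493 in sph/sph saline libraries. The part of these cells in the levels of Ccr3 was not tested.

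The other receptors that rose in WT mice were Ccr6, Ccr7, Ccr9, Ccrl2 and Ackr1, and Ackr4 fell. The rise of Ccr6 (log2 fold 5.99, edgeR adjusted p = 0.0377) was lost in 8 of 19 alternative fits, among them those without any 1 WT saline library or without WT anti-CD40 B or C (edgeR adjusted p = 0.0727 to 0.108). That of Ackr1 (log2 fold 2.40, edgeR adjusted p = 0.0184) was lost in 4 of 20, among them those without WT saline A or C or WT anti-CD40 C (edgeR adjusted p = 0.0576 to 0.0671). The rise of Ccr9 (log2 fold 5.68, edgeR adjusted p = 0.00932) was lost in limma-voom (log2 fold 5.17, adjusted p = 0.0686). The fall of Ackr4 (log2 fold -4.90, edgeR adjusted p = 0.016) was lost without WT anti-CD40 B (log2 fold -4.81, edgeR adjusted p = 0.0574). It was also lost in the 8 libraries with Y-linked counts (log2 fold -4.66, edgeR adjusted p = 0.0796). Ccr7, which takes dendritic cells to lymph nodes and is also 1 of the dendritic markers, had 6.77, 4.73 and 56.5 CPM in sph/sph anti-CD40 libraries A, B and C, against 286, 65.7 and 52.2 CPM in WT anti-CD40 libraries, and 0.604 to 3.53 CPM over the saline libraries. Here C was the high library of its group. Ccr7 rose by a log2 fold of 6.96 ± 1.25 in WT mice (edgeR adjusted p = 0.00212), and its log2 fold of sph/sph over WT under anti-CD40 was -2.57 ± 0.993 with C (edgeR adjusted p = 0.105) and -4.53 without C (edgeR adjusted p = 0.0084). Ackr1, an atypical receptor that binds Ccl2 and Ccl5 and is known from venous endothelium and red cells, had 5.18, 4.44 and 15.2 CPM in sph/sph anti-CD40 libraries, against 40.1, 58.1 and 115 CPM in WT anti-CD40 libraries. The groups did not overlap, and Ackr1 was lower in sph/sph mice (log2 fold -3.10 ± 0.697, edgeR adjusted p = 0.0138). Without C its log2 fold was -3.88 (edgeR adjusted p = 0.00721). In the 8 libraries with Y-linked counts the call was lost (log2 fold -3.13, edgeR adjusted p = 0.0908). Ccrl2, a non-signalling receptor of activated myeloid cells, was also lower in sph/sph than in WT mice under anti-CD40 (log2 fold -1.66 ± 0.51, edgeR adjusted p = 0.0479). That call was lost in 14 of 20 alternative fits. Among them were 10 of the 12 fits that left out 1 library, all but those without sph/sph anti-CD40 B or C (edgeR adjusted p = 0.064 to 0.109 in the 10). Exons of Ackr1, Ackr4 and Ccr9 overlap those of other genes, so their counts are less certain.

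**Figure D4:**
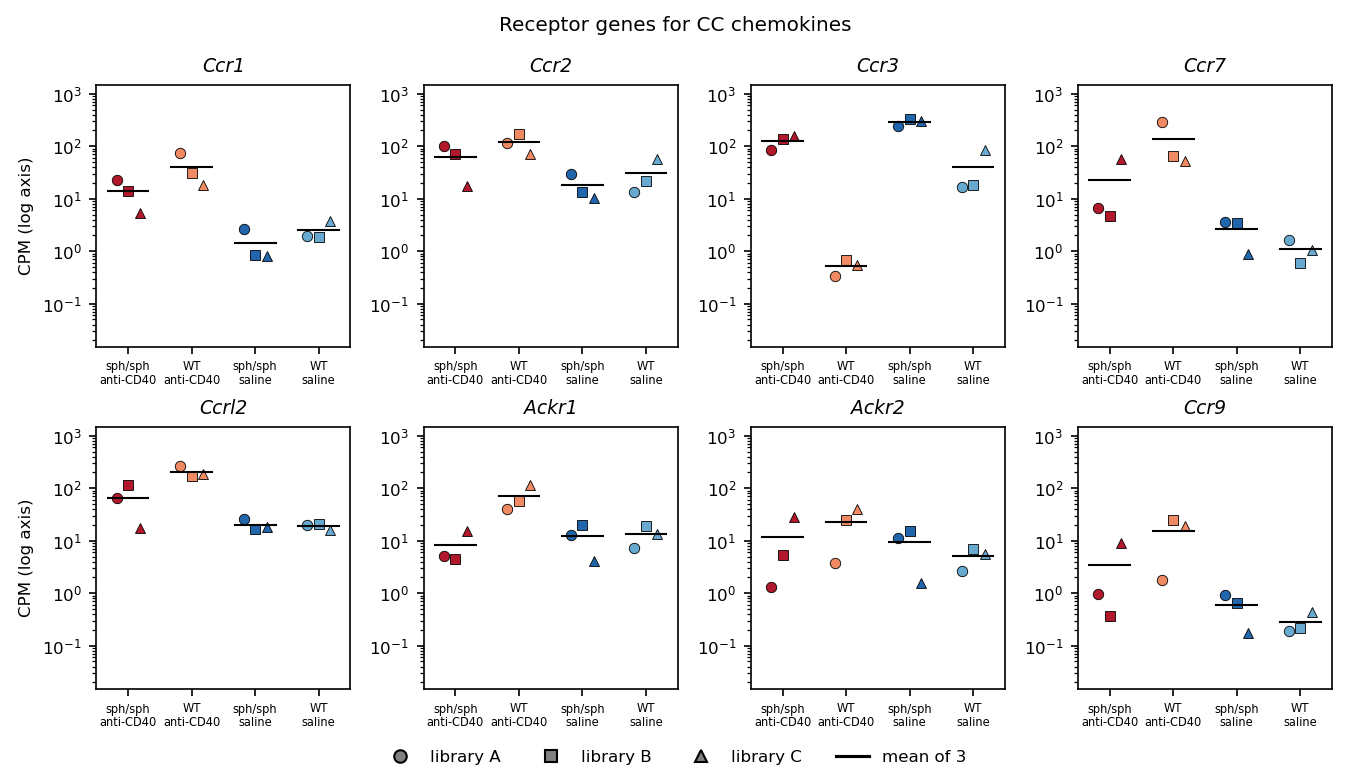
CPM (log axis) of 8 receptor genes in each library, by group, with the mean of 3 libraries as a line. Ccr3 is at 84.0 CPM or more in the 3 sph/sph anti-CD40 libraries and at 0.682 CPM or less in the 3 WT anti-CD40 libraries; Ccr1 is higher in every anti-CD40 library than in any saline library.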

How the data were processed

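RNA sequencing libraries of 12 mice, 3 per group, came from F4/80 bead-enriched liver cells. The deposited values are raw counts per gene, which the authors made with STAR 2.7.0e, SAMtools 1.9 and featureCounts on GRCm38.p5, per the submitters' processing notes. Annotation release, strand setting and handling of multimapped reads are not stated there.

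Counts were fitted with edgeR 4.0.16 in R 4.3.3 (TMM, filterByExpr, 1 mean per group, robust quasi-likelihood, all 12 libraries), with Benjamini-Hochberg adjustment over 13844 genes. The 5 contrasts were genotype under saline, anti-CD40 in each genotype, genotype under anti-CD40, and the interaction. The fit was tested on simulated data. RPKM used exon lengths of the GENCODE annotation of GRCm38. DESeq2 1.42.0, limma-voom (limma 3.58.1), other scalings, no filter, fewer groups and each library left out were alternatives. After the data were seen, a Y-linked term and the 8 libraries with Y-linked counts were added. Depth was 14991250 to 18984067 counts per library.

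Named genes are the 10 members, the other CC ligands and receptors, and the 3 genes nearest each member by Pearson's r of log2 CPM. The members and gene lists were chosen with earlier results of these data known. P-values judge a difference between groups against the spread between libraries, each taken as 1 mouse. 1 receptor gene is not reported here.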

Additional observations from a re-analysis of the deposited data

Results flagged for a closer look

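Ccl24 was marked because its response to anti-CD40 differed between the genotypes in a test of the difference itself: the log2 fold of the response in sph/sph minus that in WT mice was 3.98 ± 0.97 (edgeR adjusted p = 0.0474; 0.00119 to 0.129 over 19 alternatives).

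Ccr3, the receptor of Ccl24, was marked by the same test, at 5.05 ± 0.889 (edgeR adjusted p = 0.0123), with the call lost in limma-voom (4.57, adjusted p = 0.173) and in the 8 libraries with Y-linked counts (5.33, edgeR adjusted p = 0.0761).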

How the results depend on the processing

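Of 990 values of the 10 genes under alternatives, 928 stayed on their side of the threshold, 31 lost a call, 31 gained one and 0 reversed. For genotype under saline, a fit of only the groups compared called 1 gene higher. For anti-CD40 in WT mice the count of genes higher (7) was 3 in the 8 libraries with Y-linked counts and 4 to 7 with 1 library left out. For anti-CD40 in sph/sph mice the count higher (0) was 5 with DESeq2, 1 with the Y-linked term and 0 to 5 with 1 library left out. For genotype under anti-CD40 the count of genes higher in sph/sph (2) was 0 in only the groups compared and 1 to 3 with 1 library left out; the count lower (0) was 3 with DESeq2, 2 with limma-voom, 1 with the Y-linked term and 0 to 2 with 1 library left out. For the interaction the count higher (1) was 0 with RLE size factors, with no filter and in the 8 libraries, 2 with DESeq2 and 0 to 2 with 1 library left out; the count lower (0) was 1 with RLE, upper-quartile scaling and DESeq2 each, and 0 to 2 with 1 library left out. Calls over all genes tested moved in these settings too. For anti-CD40 in WT mice 2690 genes were called higher with all libraries and 1093 in the 8 libraries. In sph/sph mice 80 genes were called higher, against 726 with DESeq2 and 1382 without sph/sph anti-CD40 C. The cause was not tested. No paired analysis was possible because the columns of the count table carry no replicate number, and the ID numbers in their headings tie only the A libraries of both genotypes, 1 pair per treatment. With 3 mice per group, low counts such as those of Ccl17 limit what could be detected.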
